A study of Mus musculus with 8 samples.

Results

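The bone morphogenetic protein (BMP) genes described here are 7 ligand genes (Bmp2, Bmp4, Bmp5, Bmp6, Bmp7, Bmp10 and Gdf2), the secreted antagonist Grem1 and the pseudoreceptor Bambi, 9 genes of 30395 listed. They were found by matching gene identifiers to symbols, and all 9 were found and passed the filter on low values (1 CPM or more in at least 2 libraries), Bmp6, Bmp7, Bmp10 and Grem1 through the groups where they were high. They had been chosen for their levels in these same 8 libraries, so their levels and differences are given as a description, without p-values. RNA was sequenced from 2 mesenchymal populations of mouse liver, Gli1+ peribiliary mesenchymal cells (cells near bile ducts) and stellate cells (the vitamin A-storing cells of the sinusoid wall), with 2 libraries in each of 4 groups. All mice were 8 weeks old, on a mixed strain background of C57BL/6 and SWR/J, and all, stellate groups included, carried Gli1:CreER+/- and Ai9+/-: an inducible Cre recombinase under control of Gli1, a Hedgehog target gene, and a red fluorescent Cre reporter. Each population had a group from uninjured mice, which the labels do not call sham-operated, and a group taken 5 d after ligation of the bile duct (BDL), an operation that stops bile flow. Livers were digested with pronase and collagenase, and cells were separated on a gradient, sorted and made into full-length cDNA libraries (SMART-Seq2). The sources used here give neither the sort gates nor any inducer of the recombinase. Whether replicates were separate animals is not said either, and p-values therefore reflect the spread between libraries alone, which may be technical.

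BMPs are secreted dimers of the TGF-beta superfamily that join type I and type II receptor kinases, after which SMAD1, SMAD5 and SMAD9 are phosphorylated and enter the nucleus with SMAD4 to switch on genes such as those of the Id family. Antagonists such as gremlin, the product of Grem1, bind the ligands outside the cell, and Bambi resembles a type I receptor but has no kinase. In liver, BMP2 and BMP6 are known as signals to hepatocytes that raise hepcidin, the iron hormone encoded by Hamp, while BMP9, the product of Gdf2, and BMP10 act on endothelial cells through the receptor encoded by Acvrl1 with endoglin, encoded by Eng.

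RefSeq start sites of GRCm38.p6 were found for 6 of the 9 genes (Bmp4, Bmp5, Bmp6, Bmp10, Gdf2 and Grem1), and the promoters of the 3 ligands that were highest in stellate cells against Gli1+ cells are printed to set their sequences beside their levels. Each is the 250 bases before the start, 5′ to 3′ on the strand of the gene, with AGATAA, a 6-base word of the type read by GATA factors, in capitals. The word was chosen after the sequences had been seen.
Gdf2, chr14:33940789-33941038, + strand: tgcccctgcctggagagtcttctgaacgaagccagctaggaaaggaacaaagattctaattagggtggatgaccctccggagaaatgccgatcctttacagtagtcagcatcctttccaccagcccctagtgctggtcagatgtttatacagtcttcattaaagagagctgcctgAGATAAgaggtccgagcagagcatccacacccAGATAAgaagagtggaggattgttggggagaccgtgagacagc
Bmp10, chr6:87428744-87428993, + strand: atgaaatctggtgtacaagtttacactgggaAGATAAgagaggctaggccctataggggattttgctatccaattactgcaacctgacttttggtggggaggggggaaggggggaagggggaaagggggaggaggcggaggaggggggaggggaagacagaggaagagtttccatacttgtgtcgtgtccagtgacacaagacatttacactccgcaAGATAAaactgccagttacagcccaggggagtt
Bmp5, chr9:75775115-75775364, + strand: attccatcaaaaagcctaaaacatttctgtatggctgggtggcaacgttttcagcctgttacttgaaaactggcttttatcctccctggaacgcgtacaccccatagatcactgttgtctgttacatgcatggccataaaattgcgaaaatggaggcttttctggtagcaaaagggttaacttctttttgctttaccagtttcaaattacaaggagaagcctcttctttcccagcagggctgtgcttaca
Gdf2 had AGATAA 75 and 43 bases before its start, and Bmp10 had it 219 and 33 bases before its start. On both strands together each of these windows held 2 matches and overlapped no other match of the word, and the windows of Bmp5, Bmp4, Bmp6 and Grem1 held 0. Among 32851 promoter windows of this length, 9.99% held the word at least once on either strand and 0.94% at least 2 times. A match describes letters and is no evidence of a bound factor.

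Totals ranged from 11261775 to 19180370 reads, so that 3 reads, the count that a value of 0 still allows, stood for 0.156 to 0.266 CPM (reads scaled to a library total of 1000000). The sum of 12 stellate cell markers was 24000 to 68720 CPM in the stellate libraries and 921.9 to 1984 CPM in the Gli1+ libraries. All 12 were lower in Gli1+ cells in both conditions (limma, BH-adjusted p under 0.05). The marker lists were chosen with earlier results of these data known, so these calls only describe and are no independent test of cell identity. The 12 portal fibroblast markers summed to 9925 and 6685 CPM in uninjured Gli1+ libraries, 3534 and 2969 CPM after BDL and 29.23 to 150.5 CPM in the stellate libraries. The Gli1+ libraries also held markers of other cells. The 10 mesothelial markers summed to 3439 to 11480 CPM, against 4.709 to 10.06 CPM in stellate libraries. The 10 cholangiocyte markers, which share Krt19 with the mesothelial ones, summed to 3185 to 15640 CPM, against 3.806 to 756.3 CPM. Of these, Spp1 alone stood at 10259 and 5167 CPM in Gli1+ cells and at 177 and 743 CPM in stellate cells after BDL. Replicate 1 of the uninjured stellate group stood apart in 10 macrophage markers, at 10720 CPM in sum against 64.18 CPM in its replicate and 1177 to 3157 CPM in the other 6 libraries. The part of these cells in the levels below was not tested, and in bulk RNA fewer cells of a type and less RNA per cell cannot be told apart.

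The widest gaps in favour of stellate cells were those of Gdf2, Bmp10 and Bmp5. Gdf2 (chromosome 14, 33941039 to 33947198, + strand, mm10) encodes BMP9. It stood at 1379 and 2161 CPM in uninjured stellate cells, 1597 and 1303 CPM in stellate cells after BDL, 21.5 and 36.9 CPM in uninjured Gli1+ cells and 8.14 and 20.3 CPM in Gli1+ cells after BDL. All 4 stellate libraries were above all 4 Gli1+ libraries, by 60.7-fold in uninjured liver (1770 ± 553 against 29.2 ± 10.9 CPM, SD, n = 2) and by 102-fold after BDL. On the log2(CPM + 1) scale, which understates changes of genes with few reads, the difference of Gli1+ from stellate cells was -5.89 ± 0.47 (SE of the model) in uninjured liver and -6.69 ± 0.47 after BDL. Without the uninjured stellate library rich in macrophage markers, the uninjured differences of the 5 genes higher in stellate cells were -6.21 for Gdf2, -6.30 for Bmp10, -8.70 for Bmp5, -1.56 for Bmp2 and -2.88 for Bambi.

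Bmp10 (chromosome 6, 87428994 to 87437677, + strand), whose product shares receptors with BMP9, was still more one-sided. It stood at 181 and 83.4 CPM in uninjured stellate cells and at 105 and 84.6 CPM after BDL. The Gli1+ libraries held 2 reads of it in all before BDL (0.0888 and 0.0571 CPM) and 4 reads after (0.161 and 0.120 CPM), each under the level of 3 reads. The ratio of stellate to Gli1+ cells in uninjured liver was 1846, with a 95% exact interval of 510.6 to 15240 that covers counting error only.

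Bmp5 (chromosome 9, 75775364 to 75900310, + strand), a ligand close in sequence to BMP6 and BMP7, had no read in either uninjured Gli1+ library and stood at 264 and 415 CPM in uninjured stellate cells. Set against 3 reads over both Gli1+ libraries, stellate cells were at least 3314-fold higher. After BDL the Gli1+ libraries held 1.45 and 6.76 CPM (131 reads in all), at least 43.2-fold above the same floor, while the stellate libraries held 173 and 125 CPM, both below both uninjured ones. The gap between the populations was thus 36.4-fold after BDL. Bmp5 shares 1878 exon bases with the antisense gene Gm26903 and the strand setting of the counting is not given, so reads of this pair cannot be told apart. Gm26903 was listed at 0 in all 4 Gli1+ libraries and at 1.36 to 4.67 CPM in the stellate ones.

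The level of the ligands in Gli1+ cells, as a share of its stellate level, was set beside that of the stellate markers. In uninjured liver the 12 markers summed to 2.82% of their stellate level in Gli1+ cells, with single markers from 0.352% to 22.5% and a median of 1.78%. Gdf2 stood at 1.65% of its stellate level and Bmp10 at 0.0552%, below the lowest marker, and Bmp5 at 0, at most 0.0302%, while Bmp2, at 30.6%, was above the highest marker. After BDL the markers summed to 3.73% (0.601% to 20.2%, median 1.44%), and Gdf2 stood at 0.98%, Bmp10 at 0.149%, Bmp5 at 2.75% and Bmp2 at 15.9%. Bmp4 at 41.4% and Bmp6 at 67.0% were above the marker range.

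**Figure D1:**
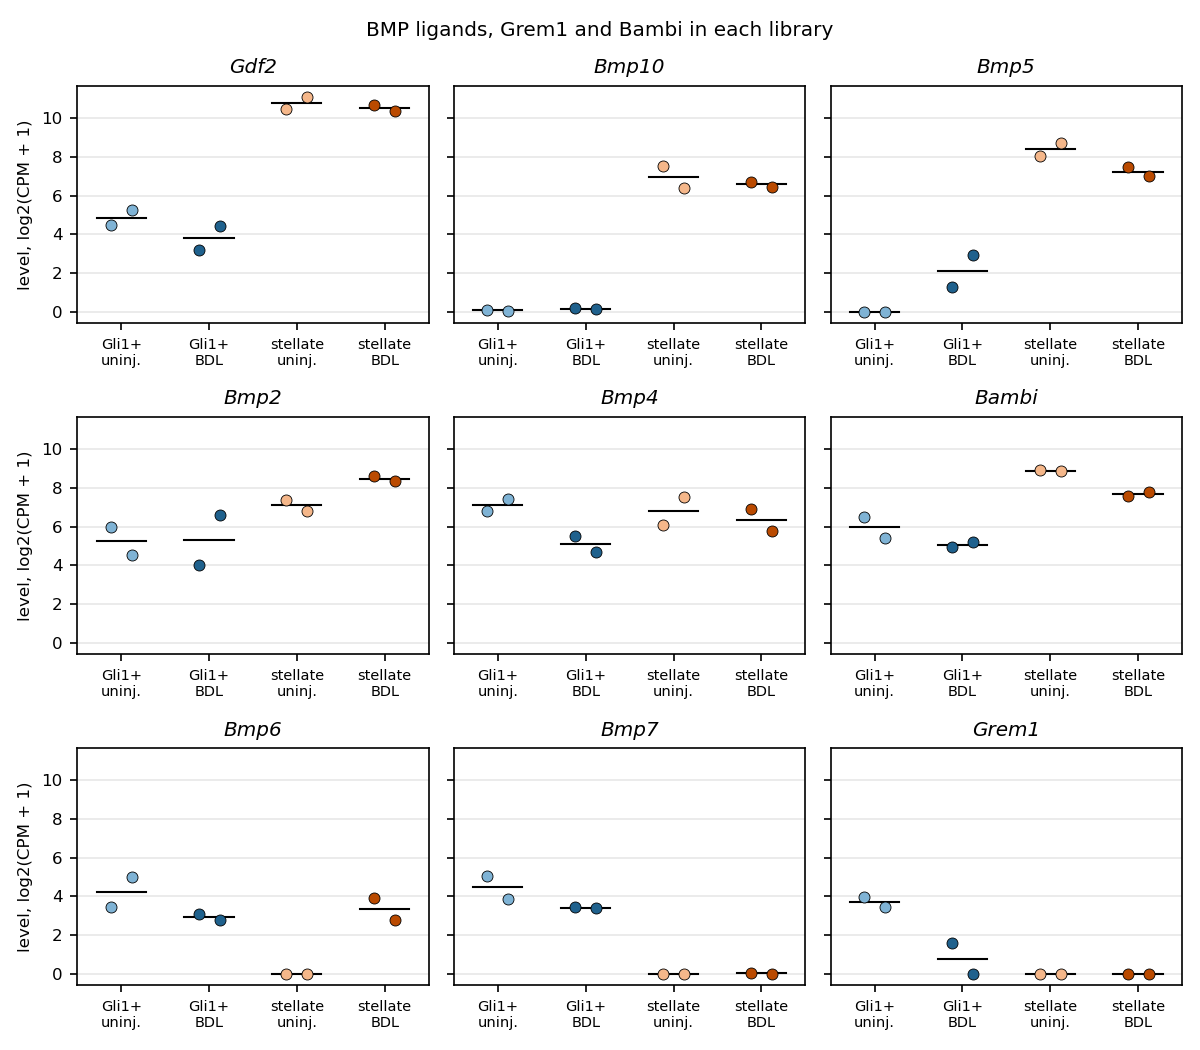
Level of each of the 9 genes in every library on the log2(CPM + 1) scale. Points are libraries, replicate 1 to the left, and the line is the mean of 2 in each group. Gdf2, Bmp10, Bmp5, Bmp2 and Bambi are higher in all 4 stellate libraries than in any Gli1+ library, and Bmp7 is higher in all 4 Gli1+ libraries.

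Bmp2 and Bmp4 were present in every library. Bmp2 (chromosome 2, 133552159 to 133562885, + strand), a ligand of the hepcidin axis, stood at 162 and 112 CPM in uninjured stellate cells and at 383 and 321 CPM after BDL, where both libraries were above both uninjured ones (log2 change 1.37 ± 0.79). In Gli1+ cells it stood at 61.1 and 22.5 CPM before and at 15.0 and 97.1 CPM after BDL. These ranges overlapped, and the log2 change of 0.05 ± 0.79 went to 1.36 without replicate 1 of the BDL group and to -1.26 without replicate 2. Stellate cells were higher in every library in both conditions.

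Bmp4 (chromosome 14, 46383520 to 46390669, - strand), which gremlin binds along with BMP2 and BMP7, showed the smallest population difference of the 9 genes in uninjured liver. It stood at 111 and 172 CPM in Gli1+ cells and 66.0 and 182 CPM in stellate cells, overlapping, and the log2 difference of 0.33 ± 0.59 went to -0.39 without replicate 1 of the uninjured stellate group. After BDL it stood at 45.1 and 25.3 CPM in Gli1+ cells, below both uninjured libraries (log2 change -2.0 ± 0.59), and at 117 and 53.0 CPM in stellate cells, within and below the uninjured range. The stellate change of -0.47 ± 0.59 went to 0.25 without replicate 2 of the uninjured stellate group and to 0.09 without replicate 2 of the stellate BDL group. Bmp4 shares 89 exon bases with Gm15217 on the opposite strand, a gene not analysed here.

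In uninjured liver Bmp6 and Bmp7 were read in Gli1+ cells and had no read in stellate cells. Bmp6 (chromosome 13, 38345107 to 38500302, + strand), the other hepcidin-raising ligand, stood at 10.03 and 30.6 CPM in uninjured Gli1+ cells and at 0 in both uninjured stellate libraries, a difference of at least 267-fold against 3 reads over the stellate group. After BDL it stood at 7.496 and 5.93 CPM in Gli1+ cells, below both uninjured libraries, and at 14.0 and 6.03 CPM in stellate cells, at least 127.5-fold above the floor. The populations then could not be ordered beyond their spread (log2 difference -0.42 ± 0.85, and 0.13 without replicate 1 of the stellate BDL group). Bmp6 shares 224 exon bases with Txndc5 on the opposite strand, which stood at 219.6 to 448.5 CPM in the 8 libraries. The uninjured stellate libraries held 237 and 449 CPM of Txndc5 and no read counted to Bmp6.

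Bmp7 (chromosome 2, 172868012 to 172940321, - strand) stood at 32.0 and 13.7 CPM in uninjured Gli1+ cells and at 9.83 and 9.70 CPM after BDL, below both. The stellate libraries held 1 read of it in all, in replicate 1 after BDL. Gli1+ cells were at least 247-fold higher in uninjured liver, and the ratio after BDL was 282 (95% exact interval 50.2 to 11180, counting error only).

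Endothelial cells, a known source of Bmp2 and Bmp6 in liver, were followed by 12 markers. In stellate cells 10 of the 12 were higher in both BDL libraries than in both uninjured ones, although 0 passed the test (limma, BH; 10 at an unadjusted p under 0.05, 0 with edgeR and 5 with DESeq2). Without Eng, which stellate libraries held at 1533 to 2312 CPM, the other 11 summed to 667.7 and 138.9 CPM in uninjured stellate libraries and to 3275 and 2399 CPM after BDL. In Gli1+ libraries they summed to 1173 and 272.0 CPM before and 668.7 and 1546 CPM after BDL. Within every group, the library with more of these markers was also the one with more Bmp2. For Bmp6 this held in the stellate BDL group and was reversed in each Gli1+ group. In replicate 2 of the uninjured stellate group Bmp2 stood at 112 CPM. The highest of the 11 markers there were Clec4g at 62.6, Tek at 28.3 and Kdr at 20.2 CPM. Tie1 was at 10.01, Fcgr2b at 6.26, Pecam1 at 4.74, Ptprb at 3.81 and Cdh5 at 2.24 CPM. Oit3 was at 0.782, Lyve1 at 0.0521 and Stab2 at 0 CPM. The part of endothelial RNA in the Bmp2 and Bmp6 levels was not tested.

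**Figure D2:**
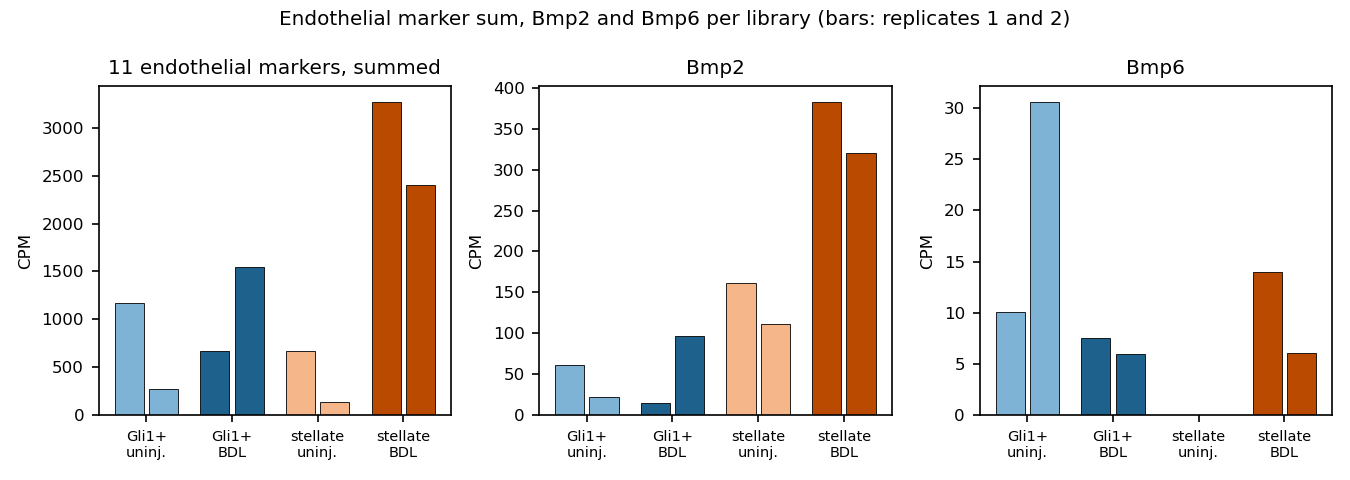
Sum of 11 endothelial markers (without Eng), Bmp2 and Bmp6 in CPM, with 1 bar per library (replicates 1 and 2 of each group). The marker sum and Bmp2 are highest in the 2 stellate BDL libraries, and Bmp6 is at 0 in both uninjured stellate libraries.

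Grem1 (chromosome 2, 113746164 to 113758646, - strand) was read in Gli1+ libraries only. It stood at 14.5 and 9.93 CPM in uninjured Gli1+ cells, at 2.02 and 0 CPM in Gli1+ cells after BDL and at 0 in all 4 stellate libraries. Gli1+ cells were at least 138.6-fold above the stellate floor in uninjured liver. After BDL this bound was 8.27, and it rested on 25 reads of replicate 1. Both BDL libraries were below both uninjured ones (log2 change -2.90 ± 0.68).

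Bambi (chromosome 18), whose product damps BMP and TGF-beta receptor signalling, stood at 472 and 457 CPM in uninjured stellate cells and at 189 and 218 CPM after BDL. In Gli1+ cells it stood at 88.4 and 42.2 CPM before and 30.1 and 35.5 CPM after BDL. All 4 stellate libraries were above all Gli1+ libraries, by 7.11-fold in uninjured liver and 6.21-fold after BDL. Both populations had less after BDL without overlap, with log2 changes of -0.88 ± 0.39 in Gli1+ cells and -1.19 ± 0.39 in stellate cells. At 14.1% and 16.1% of its stellate level in Gli1+ cells, Bambi lay within the range of the 12 stellate markers in both conditions.

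Levels were compared between genes per kilobase of exon. Bmp5 was divided by its whole exon length, of which 1878 bases are shared with Gm26903. Its levels, ranks and shares per kb are therefore uncertain. In uninjured stellate cells Gdf2 came first at 592 CPM per kb, followed by Bambi at 91.5, Bmp5 at 84.3, Bmp4 at 55.1, Bmp2 at 38.5 and Bmp10 at 29.4. Gdf2 did not overlap the next gene, whereas each neighbouring pair from Bambi to Bmp10 overlapped. After BDL the order was Gdf2 at 485, Bmp2 at 99.0, Bambi at 40.1, Bmp4 at 37.8, Bmp5 at 37.1, Bmp10 at 21.1 and Bmp6 at 2.57 CPM per kb. Bmp2 was then clear of the gene before and after it, and Bambi, Bmp4 and Bmp5 overlapped. Bmp2 thus ranked behind 4 genes in uninjured and behind Gdf2 alone in BDL stellate cells, and Bmp5 behind 2 genes and then behind 4.

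In uninjured Gli1+ cells Bmp4 came first at 62.9 CPM per kb, above all others without overlap. Bambi at 12.9, Bmp2 at 11.8, Gdf2 at 9.76, Bmp7 at 5.68, Bmp6 at 5.22 and Grem1 at 2.94 CPM per kb followed, each overlapping the next. After BDL Bmp2 at 15.8 and Bmp4 at 15.6 CPM per kb overlapped, and both stood ahead of Bambi at 6.46 and Gdf2 at 4.76 in mean.

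The sum of the 7 ligands per kb was 642 and 957 in uninjured stellate cells, 764 and 601.5 after BDL, 84.2 and 106.4 in uninjured Gli1+ cells and 31.8 and 51.0 after BDL. Gdf2 gave 69.9% to 75.6% of the sum in the 4 stellate libraries and 8.54% to 13.3% in the 4 Gli1+ libraries. Bmp4 gave 58.5% and 71.9% in uninjured Gli1+ cells. After BDL the 2 Gli1+ libraries differed: replicate 1 was 63.1% Bmp4 and 13.3% Bmp2, and replicate 2 was 22% Bmp4 and 53.6% Bmp2.

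**Figure D3:**
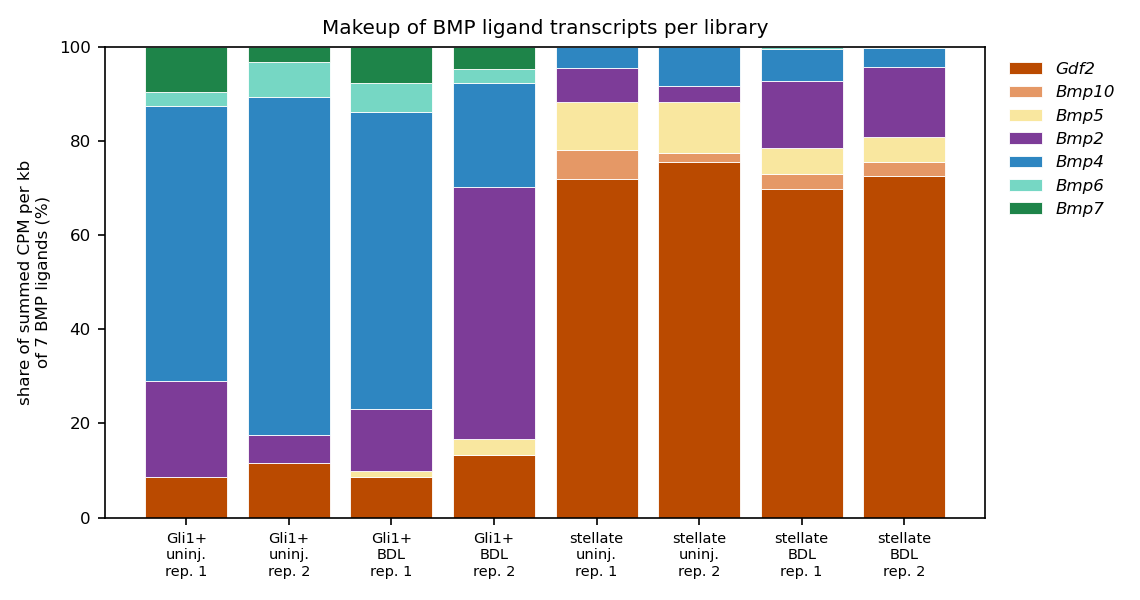
Share of each of 7 BMP ligands in their summed CPM per kb of exon, in percent, with 1 bar per library. Gdf2 makes up 69.9% to 75.6% of the stellate bars, while Bmp4 leads in 3 of the 4 Gli1+ bars and Bmp2 in the other.

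Genes of like pattern were ranked by Pearson r over the 8 libraries in log2(CPM + 1) among 10297 genes with a mean of at least 10 CPM. The 8 points share the split into 2 populations, so these values only describe. Gdf2 was nearest to Hhip (r = 0.994), which encodes a Hedgehog-binding membrane protein, then Rcsd1 and Ramp1. Bmp10 was nearest to Gsg1l (0.995), Rbfox3 and Rasgrp2. Bmp5 was nearest to Marcksl1 (0.994), Epor (0.993), the erythropoietin receptor gene, and Srpx2. Epor stood at 0.0571 and 6.02 CPM in Gli1+ cells before and after BDL and 155 and 58.7 CPM in stellate cells. Bambi was nearest to Gpat2 (0.994), Fcna (0.989), which encodes ficolin-A, and Mbnl1. Bmp2 was nearest to Plxnc1 (0.993), a semaphorin receptor gene, Dlc1 and Dock10, and Bmp4 to Slc35a4 (0.971), Abhd16a and Tmem250-ps. On the Gli1+ side Bmp7 was nearest to Prph (0.998), which encodes the neuronal filament protein peripherin, Fibin and Atp6v0a4. Grem1 was nearest to Opcml (0.979), B4galt1 and Myoc, and Bmp6 to Emsy (0.978), Heg1 and Gm15675.

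Across the 9 genes, 3 were higher and 4 lower in uninjured Gli1+ cells by the limma threshold, where 11.1% of the 16446 genes tested passed (8.06% higher and 3.02% lower). After BDL 1 was higher and 5 lower, where 6.8% of all genes passed (4.44% higher and 2.36% lower). Libraries of the 2 populations did not overlap for 3 higher and 5 lower members in uninjured liver, against 45.7% of all genes (31.1% higher and 14.6% lower), and for 1 higher and 6 lower members after BDL, against 53.9% (34.8% higher and 19.0% lower). The members were chosen on these contrasts and nothing is read from these counts. For BDL against uninjured, 0 members passed in Gli1+ cells, where 0.0% of all genes did, and 0 in stellate cells, where 0.225% did. At an unadjusted p under 0.05 by limma these were 4 and 2 members, beside 11% and 12% of all genes.

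After BDL, 6 of the 9 genes were below and 2 above both uninjured libraries in Gli1+ cells, where 41.3% of all genes did not overlap between the conditions (25.1% higher and 16.2% lower). Those below were Bmp4, Bmp6, Bmp7, Gdf2, Grem1 and Bambi, and those above were Bmp5 and Bmp10, the last on 2 and 4 reads. In stellate cells 2 were above (Bmp2 and Bmp6) and 2 below (Bmp5 and Bambi), against 39.6% of all genes (27.4% higher and 12.2% lower). The stellate change of Gdf2 was -0.26 ± 0.47 and that of Bmp10 -0.38 ± 0.70, with overlapping libraries, and leaving out single libraries took them as high as 0.07 and 0.17. The median of the 9 changes was -1.03 in Gli1+ and -0.26 in stellate cells, where the medians of all genes were 0.12 and 0.19. Beside these, the median change in Gli1+ cells was -1.33 for portal fibroblast, -1.25 for mesothelial, 1.54 for cholangiocyte and 4.62 for hepatocyte markers. It was -0.51 for stellate, 0.50 for endothelial and -0.33 for macrophage markers. In stellate cells it was 1.72 for portal fibroblast, 0.09 for mesothelial, 0.33 for cholangiocyte and 3.83 for hepatocyte markers. There it was -0.51 for stellate, 2.90 for endothelial and 0.05 for macrophage markers. In the stellate libraries the 12 stellate markers summed to 45610 and 68720 CPM before and 27670 and 24000 CPM after BDL. Their part in the members' changes was not tested.

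**Figure D4:**
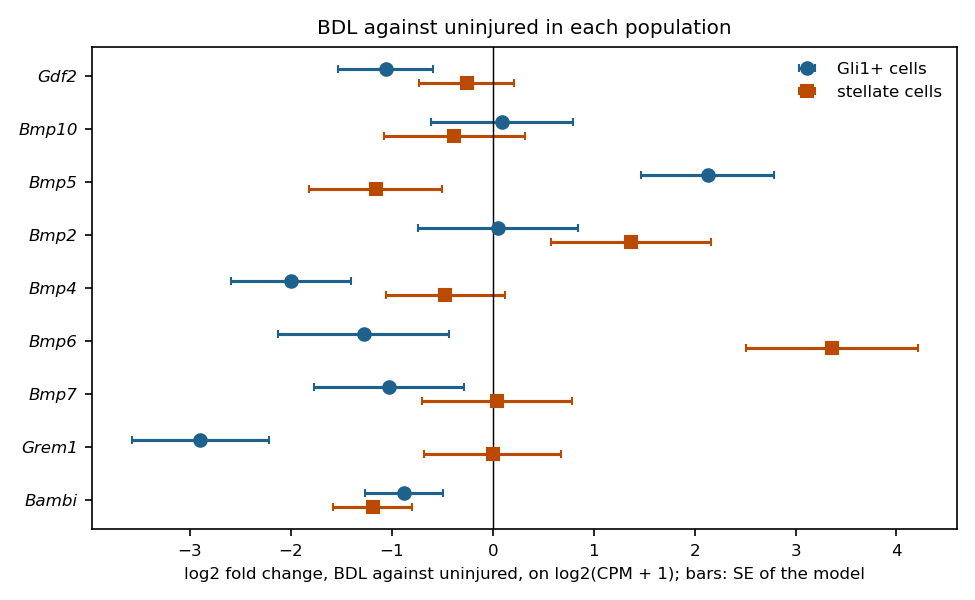
Log2 change of each gene, BDL against uninjured, on the log2(CPM + 1) scale, with Gli1+ cells as circles and stellate cells as squares. Bars are the SE of the model. Bmp5 and Bmp6 lie on opposite sides of 0 in the 2 populations, and Bambi lies below 0 in both.

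The rest of the pathway was followed with 70 listed genes in 7 classes, of which 66 were found and 58 passed the filter on low values. These were tested with limma over all 16446 genes. The 70 genes were chosen with earlier results of these data known. The counts and medians per list or class therefore only describe, and no enrichment is read from them. In uninjured liver 8 of the 58 were higher and 3 lower in Gli1+ cells (19.0%, beside 11.1% of all genes), and the median log2 difference was 1.10, beside 0.32 for all genes. After BDL 2 were higher and 4 lower (10.3%, beside 6.8%), with a median of 0.43 beside 0.23.

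Secreted antagonists made up 4 of the 8 higher genes in uninjured liver, out of 13 tested, and none of them was lower. Nbl1, which encodes the gremlin relative DAN, stood at 971 and 506 CPM in Gli1+ cells and 7.09 and 5.53 CPM in stellate cells (log2 difference 6.59 ± 0.61, BH-adjusted p = 0.000555 by limma). It stayed higher after BDL, at 226 and 194 against 14.7 and 3.40 CPM (4.66, adjusted p = 0.0039 by limma, and lost when either Gli1+ BDL library was left out, at up to 0.0765). Fst, which encodes the activin-binding follistatin, stood at 172 and 39.4 CPM against 3 reads (adjusted p = 0.00979), and Crim1, a membrane-bound BMP binder, at 224 and 219 against 83.7 and 25.0 CPM (adjusted p = 0.0324), both by limma. The Fst call was lost with no filter on low values, without replicate 1 of the uninjured Gli1+ group, or without either Gli1+ BDL library. The Crim1 call was lost in 9 of 15 alternatives, among them edgeR and 7 of 8 fits that left out 1 library.

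Of the other ligands, 6 were tested. Gdf10, which encodes BMP3b, was lower in Gli1+ cells, at 171 and 207 CPM against 642 and 924 CPM in stellate cells (log2 difference -2.03 ± 0.35, adjusted p = 0.00808 by limma, and 0.0613 without replicate 1 of the uninjured Gli1+ group). After BDL the gap was -3.40 ± 0.35 (67.9 and 103 against 751 and 1056 CPM, adjusted p = 0.00144 by limma). Bmp3, which encodes a BMP known to oppose the others, stood at 3.91 and 2.51 CPM against 0 (adjusted p = 0.0491 by limma) and was lost in 10 of 14 alternatives, among them edgeR, DESeq2, the replicate block and 6 of 8 fits without 1 library. Among the 6 genes of ligand processing tested, the proprotein convertase gene Pcsk6 was higher in uninjured Gli1+ cells (log2 difference 4.68 ± 1.10, adjusted p = 0.0283) and so was Bmp1 (1.80 ± 0.39, adjusted p = 0.0217), both by limma. Bmp1 encodes a protease that cleaves procollagens and the antagonist chordin and is no BMP ligand. These calls were lost in 10 (edgeR among them) and 7 of 15 alternatives, including 7 and 6 of the 8 fits without 1 library.

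Among receptors and co-receptors Eng, the co-receptor gene for BMP9 and BMP10, had the smallest adjusted p. It stood at 285 and 114 CPM in uninjured Gli1+ cells and 1570 and 2312 CPM in stellate cells (log2 difference -3.39 ± 0.44, adjusted p = 0.00229 by limma). After BDL it stood at 199 and 240.0 against 1811 and 1533 CPM (-2.93, adjusted p = 0.00677 by limma, lost without any 1 of the 4 BDL libraries, at up to 0.0985). Acvrl1, the type I receptor that BMP9 and BMP10 use, went the other way without passing: 54.7 and 37.1 CPM in uninjured Gli1+ cells against 23.7 and 0 CPM in stellate cells (log2 difference 3.21 ± 1.32, adjusted p = 0.176 by limma). Of the 7 receptors, Bmpr1b (at least 76.1-fold, adjusted p = 0.0322) was higher and Acvr2a (-2.26 ± 0.55, adjusted p = 0.0324) lower in uninjured Gli1+ cells by limma, lost in 8 (edgeR among them) and 7 of 15 alternatives, including 6 of 8 fits without 1 library for each. Neither passed after BDL by limma (adjusted p = 0.23 for Bmpr1b and 0.072 for Acvr2a). Acvr2a was then at -1.98 ± 0.55, and DESeq2 called it lower in Gli1+ cells (adjusted p = 0.00827).

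Of the more widely used receptors, Bmpr2, Bmpr1a and Acvr1 did not pass by limma in either condition. Bmpr2, the BMP type II receptor gene, stood at 157 and 140 CPM in uninjured Gli1+ cells and 139 and 162 CPM in stellate cells. After BDL it stood at 97.6 and 175 CPM against 318 and 336 CPM (log2 difference -1.32 ± 0.34, adjusted p = 0.0589 by limma and 0.0268 by DESeq2). The type I receptor gene Bmpr1a differed by 1.02 ± 0.30 in uninjured liver (adjusted p = 0.0682) and by 0.18 ± 0.30 after BDL (adjusted p = 0.842), and Acvr1 by -0.58 ± 0.65 (adjusted p = 0.646) and -1.0 ± 0.65 (adjusted p = 0.485), all by limma. Tgfbr3, the betaglycan co-receptor gene, was lower in Gli1+ cells after BDL, at 68.9 and 104 against 317 and 268 CPM (-1.77 ± 0.33, adjusted p = 0.0158 by limma, lost without replicate 1 of the Gli1+ BDL group or either stellate BDL library).

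None of the 12 SMAD genes and regulators passed in either population contrast (4 at an unadjusted p under 0.05 in uninjured liver and 2 after BDL by limma). edgeR called 0 in both, and DESeq2 called 2 in uninjured liver and 1 after BDL, all lower in Gli1+ cells. The inhibitory SMAD genes Smad6 and Smad7, both BMP targets, differed by -0.60 ± 0.67 and -1.23 ± 0.67 in uninjured liver and by -0.87 ± 0.67 and -1.25 ± 0.67 after BDL. Of 8 target genes tested, 0 passed in uninjured liver by limma (2 at an unadjusted p under 0.05, 0 with edgeR and 1 with DESeq2). After BDL Id3 alone passed by limma, edgeR called 0 and DESeq2 called Id3 and Msx1. Id3 stood at 295 and 650.0 CPM in Gli1+ cells against 1807 and 1915 CPM in stellate cells (-2.08 ± 0.43, adjusted p = 0.0227 by limma, lost in 5 of 15 alternatives, among them edgeR, no filter on low values and the fits without replicate 1 of the Gli1+ BDL group or either stellate BDL library). Its relatives Id1 and Id2 had differences of opposite sign, 2.08 ± 1.27 (adjusted p = 0.447) and 1.45 ± 0.65 (adjusted p = 0.268) by limma after BDL.

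**Figure D5:**
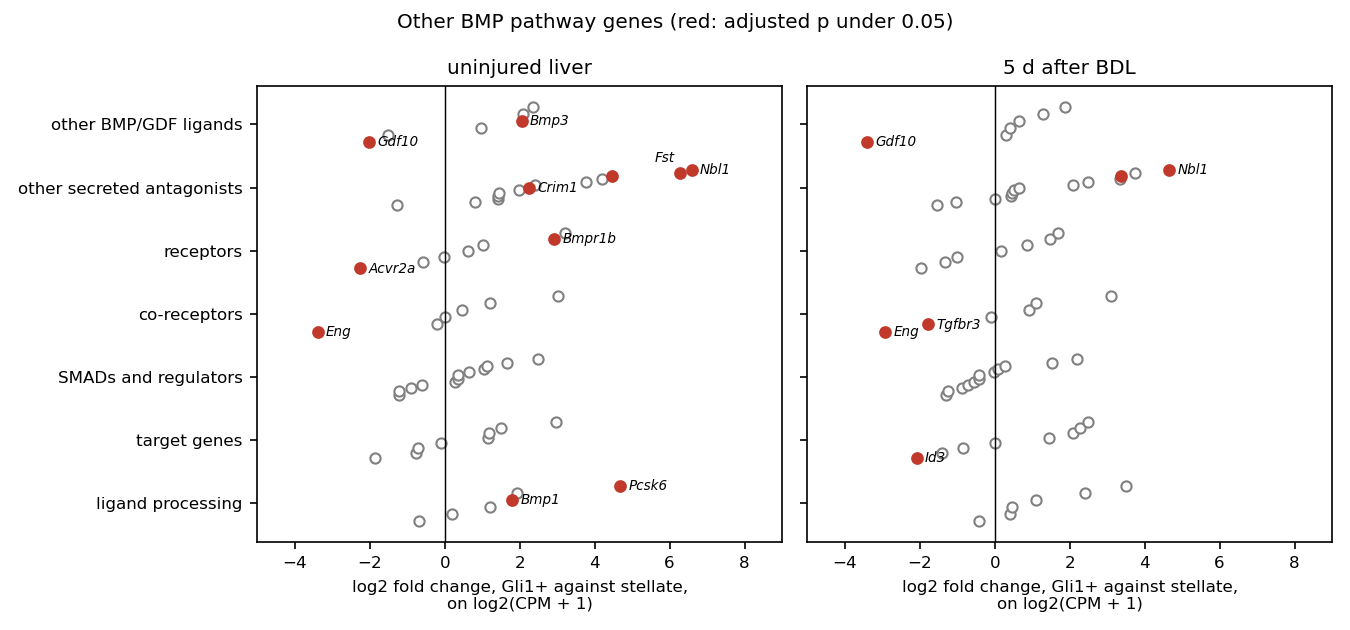
Log2 difference of Gli1+ from stellate cells for the 58 tested genes of the pathway beyond the 9, by class, in uninjured liver (left) and 5 d after BDL (right). Filled red points passed an adjusted p under 0.05 by limma. The secreted antagonist Nbl1 lies to the right, and Eng and Gdf10 to the left, in both panels. A filled point in each panel carries no name.

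For BDL against uninjured, 0 of the 58 passed by limma in either population (9 at an unadjusted p under 0.05 in each), edgeR on the recovered reads called 0 in each and DESeq2 called 4 in each. DESeq2 called Hamp in both. Hamp, which hepatocytes normally make, stood at 0.533 and 0.114 CPM in uninjured Gli1+ cells and 48.4 and 502.5 CPM after BDL (log2 change 6.92 ± 1.08, adjusted p = 0.0585 by limma). In stellate cells it went from 0.0612 and 0.886 to 23.9 and 42.1 CPM (4.53 ± 1.08, adjusted p = 0.151 by limma). A near-identical copy, Hamp2, makes its counts uncertain. The 10 hepatocyte markers summed to 1198 and 328.4 CPM before and 2965 and 16050 CPM after BDL in Gli1+ libraries, and to 239.5 and 72.37 CPM and then 1735 and 1709 CPM in stellate libraries, and their part in the Hamp levels was not tested. In the difference of BDL responses, 2 of all genes (0.0122%) and 0 of the 58 passed by limma. At an unadjusted p under 0.05 by limma were 6 of the 58, beside 7.48% of all genes. The SE of a change within 1 population was 0.39 to 0.85 among the 9 members.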

How the data were processed

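The deposited values were CPM, named normalized counts per the file headers. The genome build mm10 and the tools STAR 2.5.2b, featureCounts, FastQC and DESeq2 come from the submitters' processing notes. The annotation, strand setting and handling of multiply matching reads were not given in the sources used here. Each column summed to 1000000 and 100% of values were whole multiples of 1 read within 0.1 read, so whole reads were recovered. Of 30395 identifiers 30214 matched GENCODE vM21 on GRCm38 (mm10), which gave coordinates counted from 1 and exon lengths. Symbols came from a separate list of gene names, by gene identifier, and were found for 30214. Hjv was found under its older symbol Hfe2.

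The design allowed edgeR for counts and limma-trend for CPM, so limma 3.58.1 (R 4.3.3) was fitted to log2(CPM + 1) of the 16446 genes at 1 CPM or more in at least 2 libraries: 1 model of 4 group means over 8 libraries, 4 residual degrees of freedom, and Benjamini-Hochberg (BH) adjustment over all of these genes at a threshold of 0.05. The procedure was also run on simulated data, and no result given here rests on that run. Median log2 differences of all genes were 0.32 and 0.23 between the populations, uninjured and after BDL, and 0.14 and 0.09 after TMM scaling, which shifted the members' values by -0.24 to 0.10. Bounds use a floor of 3 reads over a group. Intervals are exact at 95% and cover counting error only, since PCR copies are not independent molecules. Alternatives were edgeR 4.0.16, DESeq2 1.42.0, TMM, other filters and pseudocount, a replicate block and leaving out each library.

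The members and the gene lists were chosen with earlier results of these data known. The text names the 9 members, 10 receptor, SMAD and target genes, up to 8 other pathway genes past the threshold per comparison and direction, and the 3 genes most alike to each member. Gdf5, Sost, Sostdc1 and Cer1 were not analysed here. A further gene that passed is counted but is not reported here by name.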

Additional observations from a re-analysis of the deposited data

Results flagged for a closer look

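The BDL responses of Bmp5 and Bmp6 went in opposite directions in the 2 populations in every library. Bmp5 was higher after BDL in both Gli1+ libraries and lower in both stellate libraries, a difference of responses (Gli1+ minus stellate) of 3.29 ± 0.93 on the log2(CPM + 1) scale. Bmp6 was lower after BDL in both Gli1+ libraries and higher in both stellate libraries, a difference of -4.65 ± 1.20. Neither difference was tested, since the genes were chosen on these groups. Each of the responses of Bmp5 in Gli1+ cells and of Bmp6 in stellate cells starts from a group at 0, and 131 and 311 reads stand behind the BDL levels. No group had enough libraries for a check of single outlying libraries.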

How the results depend on the processing

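Of the 45 fold changes of the 9 members, 34 kept 1 sign, without reaching 0, in every one of 15 alternatives. A further 3 reached 0 (Grem1 between the populations after BDL, and Bmp7 and Grem1 in stellate cells after BDL). The other 8 took the other sign in at least 1: Bmp4 between the populations in uninjured liver, Bmp6 between them after BDL, Bmp2 in Gli1+ cells after BDL, Bmp4, Bmp10 and Gdf2 in stellate cells after BDL, and the difference of BDL responses of Bmp10 and Bambi. Some alternatives could not change a fold change. These were the other filters on low values, the replicate block and leaving out a library of a group not compared. Keeping the sign in them was fixed in advance, and the members were chosen on these groups, so these counts only describe. Bmp4 in uninjured liver was 0.33, and -0.07 with edgeR and -0.04 with DESeq2. Calls of Nbl1 and Eng in uninjured liver and of Gdf10 after BDL held in all 15.

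Between the populations in uninjured liver, 1822 genes and 11 of the 58 pathway genes passed. DESeq2 called 2996 and 18, edgeR called 7 of the 58 (4 higher, 3 lower), and without a filter on low values 810 and 3 passed. Leaving out 1 library gave 1050 to 1782 genes and 5 to 13 pathway genes, with 5 without replicate 1 of the uninjured Gli1+ group or either stellate BDL library. After BDL, 1118 genes and 6 pathway genes passed, edgeR called 621 genes and DESeq2 12 pathway genes, and leaving out 1 library gave 144 to 1341 and 2 to 10. The count was 2 without replicate 1 of the Gli1+ BDL group or either stellate BDL library, and 10 without replicate 2 of the uninjured Gli1+ group or either uninjured stellate library.

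For BDL in Gli1+ cells 0 genes passed with limma (1812 at an unadjusted p under 0.05), DESeq2 called 412 and 4 pathway genes, a filter of 5 CPM gave 3 and no filter 127, and leaving out 1 library gave 0 to 0 for both counts. For BDL in stellate cells 37 passed, and 1023 with DESeq2 (4 pathway genes), 23 with TMM, 62 with edgeR, 6 without a filter and 97 with a pseudocount of 0.1. Leaving out 1 library gave 0 to 214, and 0 to 2 pathway genes. For the difference of responses 2 passed, and 389 with DESeq2 (1 pathway gene, Fst), 11 with edgeR and 0 without a filter, and 0 to 30 and 0 to 0 without 1 library. With a replicate block these counts were 1566 genes and 10 pathway genes in uninjured liver, 943 and 6 after BDL, 18 for stellate BDL and 0 for the difference. Deviations of same-numbered libraries correlated between -0.112 and 0.112 over genes. These values cannot tell whether same-numbered libraries shared an animal or a batch. The cause of these shifts was not tested.

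With 2 libraries a group, small differences were not detectable, and large ones could also fail to pass. Acvrl1, at 3.21 ± 1.32 between the populations in uninjured liver, did not pass by limma. Genes with few reads are compressed by the pseudocount.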
